A study of Mus musculus with 32 samples.

Results

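The collagen genes were the 44 of 21506 tested mouse genes whose platform symbol had the form of a collagen alpha chain name, Col followed by the collagen type, the letter a and the chain number. They fell into 9 chains of the fibrillar types 1, 2, 3, 5 and 11, 8 chains of the basement membrane types 4, 15 and 18, 6 chains of type 6, and 21 chains of other types. RNA was measured on 32 Affymetrix Mouse Gene 2.1 ST arrays of 3T3-L1 adipocytes, a mouse embryonic fibroblast line that was differentiated in culture into fat-like cells. The 16 groups of 2 arrays were cells given 1 µM auranofin together with 100 µM BCNU (AF+BCNU, called co-treatment below), auranofin alone (AF) or BCNU alone for 2, 4, 8 or 24 h, control cells at 4, 8 and 24 h, and untreated cells at 0 h. Auranofin blocks thioredoxin reductase, whereas BCNU (a nitrosourea) blocks glutathione reductase, and the question put to the collagens was how their transcripts changed over time when 1 or both thiol recycling systems were blocked. No control was labelled 2 h, and the untreated 0 h arrays stood in for it. The headings of a supplementary table of the study name the same reference, although its methods describe controls at each time point. All groups are of 1 cell line. Nothing in the labels says that the arrays of a group represent independent cultures, and p-values here reflect only the spread between these arrays, which may be technical. The number of arrays limited the precision. The 9 tested adipocyte markers, among them Adipoq and Fabp4, had mean log2 levels from 8.59 to 13.16, above the array medians of 3.55 to 3.69, and markers of fibroblasts and preadipocytes such as Dcn (10.43) and Pdgfra (9.69) were detected on the same arrays.

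Collagens are the main structural proteins of the extracellular matrix, each built of alpha chains wound into a triple helix. Fibrillar collagens pack into the load-bearing fibrils of connective tissue, type 4 forms the network of the basement membrane that surrounds each adipocyte, and type 6 forms beaded microfilaments that are abundant around fat cells. Fibril-associated collagens such as type 12 coat the fibrils, and their chains, like those of all collagens, are hydroxylated and folded in the endoplasmic reticulum before secretion.

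Promoter sequence is shown first for chains on which the results turn: Col11a1, with the largest fall, the type 1 chain Col1a2 and the type 3 chain Col3a1, which also fell, and Col4a1 of basement membrane, which did not pass the size threshold. Each window runs 5′ to 3′ on the coding strand from 250 bases before to 50 bases after the transcription start, as RefSeq gives it on GRCm38.p6. Capitals mark CCAAT or TATAAA, or the same letters read on the opposite strand.
Col11a1, chr3:114030290-114030589, plus strand: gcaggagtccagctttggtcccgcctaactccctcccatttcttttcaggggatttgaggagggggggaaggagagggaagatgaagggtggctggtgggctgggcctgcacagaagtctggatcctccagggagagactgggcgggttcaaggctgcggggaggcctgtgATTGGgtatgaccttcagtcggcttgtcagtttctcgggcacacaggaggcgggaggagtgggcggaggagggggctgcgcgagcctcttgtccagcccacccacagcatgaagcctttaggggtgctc
Col1a2, chr6:4505368-4505667, plus strand: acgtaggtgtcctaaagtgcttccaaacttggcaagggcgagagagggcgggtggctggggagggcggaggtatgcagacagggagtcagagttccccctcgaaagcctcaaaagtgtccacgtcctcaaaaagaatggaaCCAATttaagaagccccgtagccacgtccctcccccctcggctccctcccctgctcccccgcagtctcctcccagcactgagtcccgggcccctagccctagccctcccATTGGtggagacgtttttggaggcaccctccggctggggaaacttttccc
Col3a1, chr1:45311288-45311587, plus strand: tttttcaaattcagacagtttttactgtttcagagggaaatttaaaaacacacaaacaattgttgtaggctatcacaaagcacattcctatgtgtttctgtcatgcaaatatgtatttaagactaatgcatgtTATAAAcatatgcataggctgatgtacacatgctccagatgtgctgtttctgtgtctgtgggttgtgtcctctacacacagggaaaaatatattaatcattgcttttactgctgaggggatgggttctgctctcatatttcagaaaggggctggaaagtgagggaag
Col4a1, chr8:11312777-11313076, minus strand: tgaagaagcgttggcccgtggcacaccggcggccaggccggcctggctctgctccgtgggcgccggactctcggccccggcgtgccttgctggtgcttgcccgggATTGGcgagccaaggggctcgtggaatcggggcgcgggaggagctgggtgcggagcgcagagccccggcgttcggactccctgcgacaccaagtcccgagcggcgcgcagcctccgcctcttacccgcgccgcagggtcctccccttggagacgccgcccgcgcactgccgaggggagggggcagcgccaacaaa

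The windows differed in what they held. Col3a1 carried a TATAAA and no CCAAT, the other 3 windows carried CCAAT on one strand or the other and no TATAAA, and Col1a2 carried CCAAT at 2 places. RefSeq windows were found for 35 of the 44 collagen genes, 38 windows in all, and 9 of the 12 genes that fell at 24 h were among them. CCAAT on either strand occurred in 34.2% of the collagen windows and in 37.4% of the 32851 windows of all genes. TATAAA on either strand occurred in 13.2% of collagen windows and in 13.6% of all. The letters GGGCGG, the core of a GC box, occurred on either strand in 60.5% of collagen windows and 35.7% of all windows, with 7 of the 10 windows of genes that fell and 16 of the 28 others. TGANTCA, the AP-1 letters, occurred in 2.63% of collagen windows and 7.81% of all. Each motif was searched on its own, so occurrences of different motifs could overlap at their ends, and no test was made of these shares. Col4a1 and Col4a2 lie head to head, and their windows share 78 bases.

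After 24 h of co-treatment, 12 of the 44 collagens fell and none rose. The genes that fell were 6 of the 9 fibrillar chains, with a class median log2 change of -0.98, 3 of the 21 other chains (Col12a1, Col8a1 and Col16a1), 2 of the 6 type 6 chains (Col6a1 and Col6a2) and 1 of the 8 basement membrane chains (Col15a1). Across all genes tested, 4.25% were called lower and 4.88% higher in the same comparison. A gene was called at a limma p of under 0.05 after Benjamini-Hochberg adjustment over all genes, together with a log2 change of more than 0.5 in size. The class medians were -0.30 for basement membrane, -0.18 for type 6 and -0.06 for the others, beside -0.20 for all collagens and 0.01 for all genes, and the differences between classes were not tested. The classes also differed in how many of their chains lay at low levels. No collagen at or below the level of the median gene was called, so class counts and medians partly follow level. Each treated group was set against control arrays shared by all 3 treatments of that time. In these bulk cultures, fewer cells of a kind and less RNA per cell cannot be told apart.

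**Figure D1:**
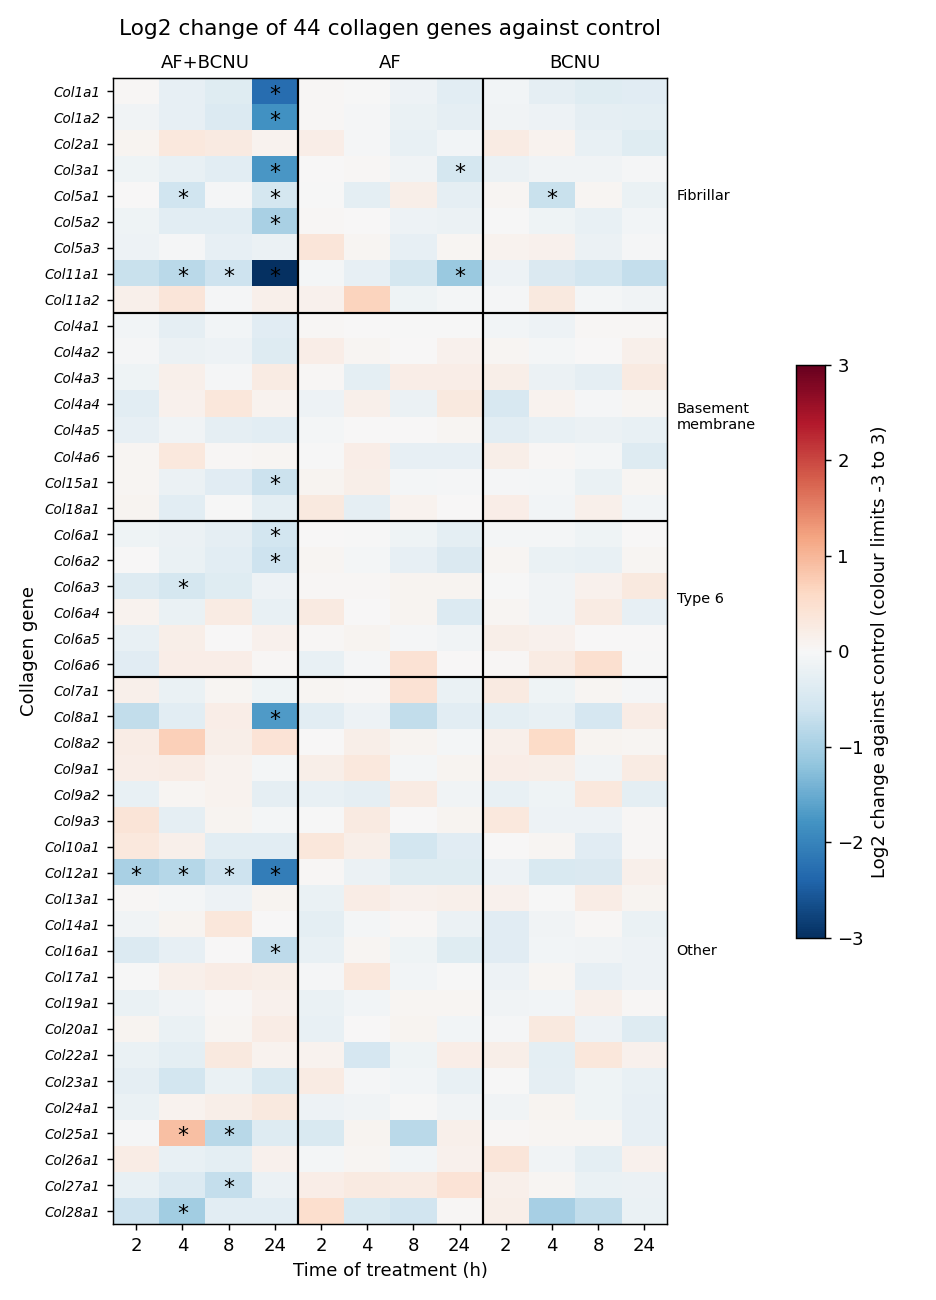
Log2 change of each of the 44 collagens (rows, by class) in each treatment and time against control (columns), with blue lower and red higher and with a star for genes called by limma (adjusted p under 0.05 and log2 change over 0.5). The 12 stars of AF+BCNU at 24 h sit in the fibrillar class and in a few genes of the other classes. The colour scale is limited, and Col11a1 at 24 h lies beyond it.

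Among fibrillar collagens, Col11a1, a chain of the minor fibril-nucleating type 11, fell furthest. Its level was 3.31 and 2.73 on the 2 co-treated arrays at 24 h and 6.84 and 6.43 on the control arrays. The groups were far apart, and the co-treated levels lay below the medians of all 32 arrays, which ran from 3.55 to 3.69. The log2 change was -3.62 ± 0.18 (SE, n = 2 arrays each; adjusted p = 1.19e-11, limma), 12.3-fold lower. Col1a1 and Col1a2 make the type 1 collagen of skin, bone and fat stroma. Col1a1 read 8.60 and 8.54 in co-treated cells and 10.90 and 10.83 in control cells. Its log2 change was -2.30 ± 0.10 (adjusted p = 1.7e-12), 4.91-fold lower. Col1a2 read 9.77 and 9.69 against 11.55 and 11.53 in control cells, with -1.81 ± 0.10 on the log2 scale (adjusted p = 3.01e-11). The partner chains thus moved the same way, and whether they differed in size was not tested.

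Col3a1, the type 3 chain of reticular fibres, was at 9.10 and 9.07 in co-treated cells and at 10.81 and 10.86 in control cells, a log2 change of -1.75 ± 0.10 (adjusted p = 5.81e-11). Its neighbour on the same chromosome, Col5a2, a regulatory type 5 chain, was at 7.47 and 7.55 in co-treated cells and at 8.39 and 8.59 in control cells. Its log2 change was -0.98 ± 0.09 (adjusted p = 7.2e-08). Both genes had groups that did not overlap, a weak criterion with 2 arrays each. Col5a1 fell less, to 4.98 and 4.82 in co-treated cells, against 5.37 and 5.47 in control cells, with a log2 change of -0.52 ± 0.14 (adjusted p = 0.0152). Its 2 probe sets disagreed: the one with the higher mean level, 7.48, changed by -0.96, whereas the one at 3.00 changed by -0.08. The call was lost on leaving out control replicate 2 (adjusted p = 0.118) or co-treated replicate 2 (adjusted p = 0.127). Another collagen entered the calls in its place each time: Col25a1 lower (-0.80, adjusted p = 0.0463) without control replicate 2, and Col24a1 higher (0.54, adjusted p = 0.0327) without co-treated replicate 2. Col5a3, Col2a1 and Col11a2 were not called, with log2 changes of -0.18, 0.09 and 0.15. Of the 22 collagens with a mean level above that of the median gene, 12 were called lower, where 7.86% of the 10753 genes above that level were. Of the 22 at or below it, 0 were called, where 0.632% of genes were.

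**Figure D2:**
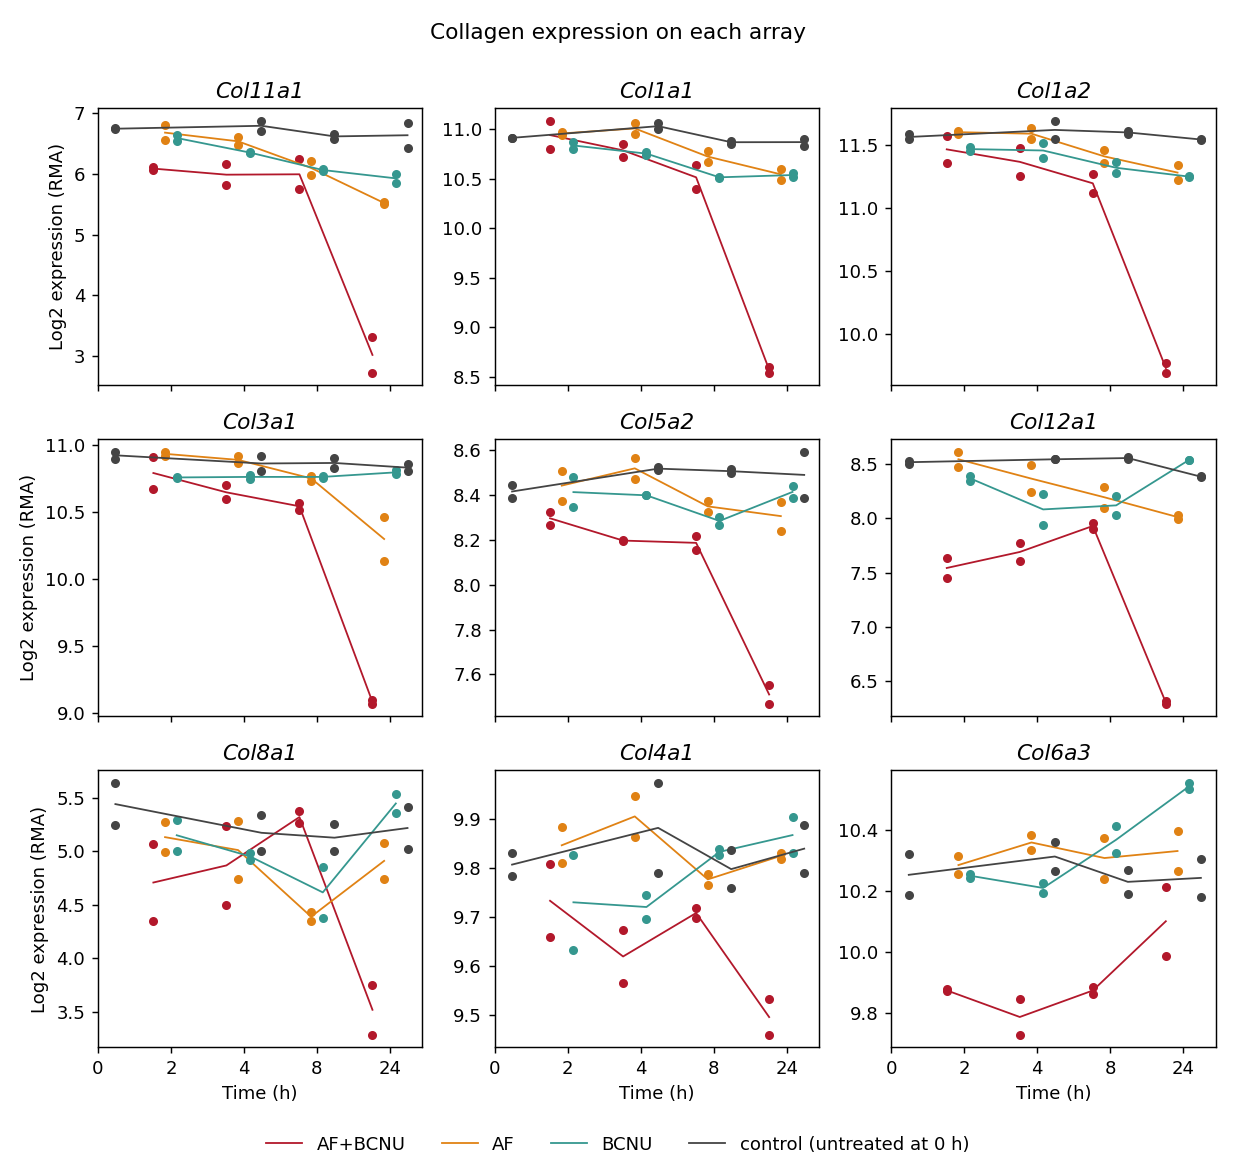
Log2 expression level (vertical axis, RMA values) of 9 collagens against time in hours (times evenly spaced), each point 1 array and each line the group means, for AF+BCNU, AF, BCNU and control cells, the control at 0 h being untreated. At 24 h the AF+BCNU arrays lie below those of the other 3 groups for Col11a1, Col1a1, Col1a2, Col3a1, Col5a2, Col12a1, Col8a1 and Col4a1, whereas those of Col6a3 overlap with the control.

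Among the other collagens, Col12a1, a fibril-associated collagen that decorates type 1 fibrils, had the largest fall. It read 6.29 and 6.31 in co-treated cells and 8.38 and 8.39 in control cells, with a log2 change of -2.08 ± 0.11 (adjusted p = 2.45e-11). The drop left the co-treated arrays well clear of control. Col8a1, a short-chain network-forming collagen of vessel walls, read 3.28 and 3.75 against 5.02 and 5.41 in control cells, a log2 change of -1.70 ± 0.27 (adjusted p = 0.000144). Col16a1, a further fibril-associated chain, read 4.06 and 4.25 in co-treated cells and 4.94 ± 0.09 (mean ± SD, n = 2) in control cells (-0.78 ± 0.15, adjusted p = 0.000855). The other 18 chains of the class were not called, with log2 changes between -0.47 for Col23a1 and 0.40 for Col8a2, the partner chain of Col8a1, whose mean level was only 2.39. The 3 chains of type 9, a fibril-associated collagen of cartilage, lay between -0.26 for Col9a2 and -0.05 for Col9a1. Col24a1 and Col27a1, which are fibrillar by structure, fell outside the fibrillar types used here and changed by 0.30 ± 0.15 and -0.18 ± 0.22.

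Of the type 6 chains, 2 of 6 fell. Col6a1 and Col6a2, neighbours on the same chromosome, were the pair that fell. Col6a1 read 11.32 and 11.30 in co-treated cells and 11.85 and 11.86 in control cells (-0.55 ± 0.08, adjusted p = 5.86e-05), and Col6a2 read 9.31 and 9.40 against 9.99 and 9.94 in control cells (-0.61 ± 0.09, adjusted p = 0.000113). Col6a3, the chain whose cleaved end is released by adipocytes, did not pass the test at 24 h. It read 9.99 and 10.21 in co-treated cells and 10.18 and 10.31 in control cells, so the groups overlapped. Col6a4, Col6a5 and Col6a6 were at low mean levels, between 1.87 and 2.93, and changed by -0.22, 0.12 and 0.03 on the log2 scale, none of them called.

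In basement membrane, Col15a1, which lies in the zone under the membrane and carries an anti-angiogenic end fragment, read 7.86 and 8.08 in co-treated cells against 8.49 and 8.73 in control cells, a log2 change of -0.64 ± 0.12 (adjusted p = 0.000817). The head-to-head genes Col4a1 and Col4a2 both had adjusted p under the threshold but fell short of the size threshold. Col4a1 was at 9.46 and 9.53 in co-treated cells and 9.89 and 9.79 in control cells (-0.34 ± 0.09, adjusted p = 0.0115), and Col4a2 at 8.43 and 8.57 against 8.89 and 8.90 (-0.39 ± 0.09, adjusted p = 0.00565). By adjusted p alone, 14 collagens were lower at 24 h, where 6.57% of all genes were lower by that rule. The remaining 4 chains of type 4 and the type 18 chain were not called, with Col4a5 at -0.30 ± 0.13 (adjusted p = 0.141) and Col18a1, the source of endostatin, at -0.29 ± 0.12 (adjusted p = 0.118). Col4a3, Col4a4 and Col4a6 changed by 0.25, 0.10 and 0.06.

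**Figure D3:**
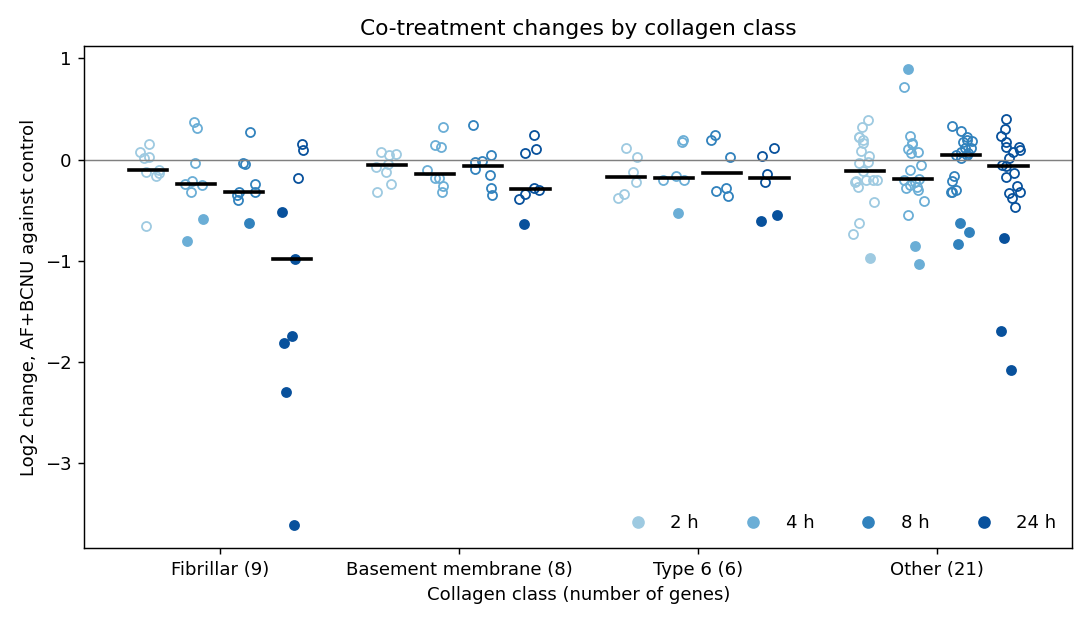
Log2 change of AF+BCNU against control at 2, 4, 8 and 24 h (vertical axis) for the collagens of each class, 1 point a gene, filled where called, with a black bar at the class median. The fibrillar medians were -0.10, -0.24, -0.32 and -0.98 at 2, 4, 8 and 24 h.

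The earlier time points showed fewer calls. At 2 h, 1 collagen, Col12a1, was called lower, where 0.86% of all genes were called lower. Its level was 7.64 and 7.45 in co-treated cells and 8.53 and 8.50 in untreated cells, a log2 change of -0.97 ± 0.11 (adjusted p = 2.4e-05). Col12a1 was lower at each time: -0.85 ± 0.11 at 4 h (adjusted p = 2.9e-05) and -0.63 ± 0.11 at 8 h (adjusted p = 0.00033). At 4 h, 5 collagens were lower and 1 higher, where 3.31% of genes were called lower and 2.53% higher. Besides Col12a1 these were Col11a1 (-0.80 ± 0.18, adjusted p = 0.00582), Col6a3 (-0.53 ± 0.09, adjusted p = 0.000694), Col5a1 (-0.59 ± 0.14, adjusted p = 0.0104) and Col28a1 (-1.03 ± 0.26, adjusted p = 0.0164). The 2 Col5a1 probe sets differed. The one at a mean level of 7.48 changed by -0.33, under the size threshold, and the one at 3.00 by -0.84. Col6a3, a type 6 chain, read 9.73 and 9.85 in co-treated cells and 10.27 and 10.36 in control cells. Its call was lost on the size threshold without control replicate 2 (-0.48) or co-treated replicate 1 (-0.47). Col11a1 was lost without control replicate 2 or co-treated replicate 2 (adjusted p = 0.078 and 0.0809), Col5a1 without control replicate 1 or co-treated replicate 2 (0.0859 and 0.094), and Col28a1 without any array but co-treated replicate 1 (0.0861 to 0.135).

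Col25a1, a transmembrane collagen, was called in opposite directions at 4 and 8 h. At 4 h it read 3.61 and 3.79 in co-treated cells and 2.74 and 2.87 in control cells (0.90 ± 0.23, adjusted p = 0.0183), and at 8 h 2.83 and 2.86 in co-treated cells against 3.82 and 3.55 in control cells (-0.84 ± 0.23, adjusted p = 0.0166). The control arrays read higher at 8 h than at 4 h and the co-treated arrays lower, and its mean over all arrays, 3.06, lay below the array medians. The 4 h call was lost on leaving out any 1 array (adjusted p = 0.061 to 0.111), and the 8 h call on leaving out any array but control replicate 2 (adjusted p = 0.0631 to 0.139).

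At 8 h, 4 collagens were called lower and none higher, where 5.58% of genes were called lower and 5.72% higher. They were Col12a1, Col25a1, Col11a1 (-0.62 ± 0.18, adjusted p = 0.0193) and Col27a1 (-0.71 ± 0.22, adjusted p = 0.0346). Col11a1 lost its call without control replicate 1 or 2 or co-treated replicate 2 (adjusted p up to 0.256), and Col27a1 without control replicate 1 or 2 or co-treated replicate 1 (adjusted p up to 0.423). By adjusted p alone 11 collagens were lower at 8 h, where 8.34% of all genes were, among them Col1a1, Col1a2, Col3a1 and Col5a2 at log2 changes between -0.40 and -0.32. The effect of co-treatment at 24 h minus that at 8 h was tested directly, and 8 collagens were called lower in that difference, where 1.34% of all genes were. Col11a1 had the largest difference of effects (-2.99 ± 0.25, adjusted p = 3.38e-07). It was followed by Col1a1 (-1.94), Col8a1 (-1.89), Col12a1 (-1.45), Col3a1 (-1.42), Col1a2 (-1.41), Col16a1 (-0.79) and Col5a2 (-0.66). The Col16a1 difference lost its call on leaving out any 1 of the 8 arrays (adjusted p = 0.0512 to 0.187), and the other 7 kept theirs.

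The single drugs gave few collagen calls. At 24 h of AF 2 collagens fell, where 0.358% of genes were called lower. In that comparison 10 of the 44 collagens had an unadjusted p under 0.05, as did 2280 of all 21506 genes. Col11a1 read 5.51 and 5.53 in AF cells and 6.84 and 6.43 in control cells (-1.12 ± 0.18, adjusted p = 0.00128), and Col3a1 read 10.14 and 10.47 against 10.81 and 10.86 in control cells (-0.53 ± 0.10, adjusted p = 0.0042). Neither gene's groups overlapped, but Col3a1 lost its call without control replicate 2 (adjusted p = 0.0568) or AF replicate 1 (adjusted p = 0.153), and both genes lost it when only the 24 h arrays were fitted (adjusted p = 0.137 for Col11a1 and 0.235 for Col3a1), a fit in which 0.0558% of all genes were called lower. By adjusted p, Col6a2 was lower as well at 24 h of AF, at 9.49 and 9.57 in AF cells against 9.99 and 9.94 in control cells, but its log2 change of -0.43 ± 0.09 (adjusted p = 0.018) was under the size threshold. The type 1 chain Col1a1 read 10.48 and 10.60 with AF and 10.52 and 10.55 with BCNU, against 10.90 and 10.83 in control cells. Neither difference passed the adjusted test (-0.33 ± 0.10 in each, adjusted p = 0.124 with AF and 0.257 with BCNU). The arrays did not overlap, which says little with 2 arrays in each group. At 2, 4 and 8 h of AF no collagen was called, where 0.0697%, 0.284% and 1.43% of genes were called in either direction, and 4, 3 and 8 collagens had an unadjusted p under 0.05. With BCNU 1 collagen was called at 4 h, Col5a1 (-0.67 ± 0.14, adjusted p = 0.0228), where 0.4% of genes were called lower. There 6 collagens had an unadjusted p under 0.05. The Col5a1 call was lost without control replicate 1 or 2 or BCNU replicate 2. Its probe sets again differed, at -0.39 for the one of higher mean level and -0.95 for the one of lower level. No collagen was called with BCNU at 2, 8 and 24 h, where 0.0465%, 2.26% and 0.191% of genes were called, with 4, 8 and 6 collagens at an unadjusted p under 0.05. No collagen was called for the BCNU effect at 24 h minus that at 8 h, where 0.488% of genes were. Later controls against 0 h gave no called gene in the whole series by limma, with 4 collagens at an unadjusted p under 0.05 at each time.

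Whether both drugs did more than the sum of the single-drug effects was tested as an interaction. At 4 h no collagen was called, where 1.57% of genes were, and 5 had an unadjusted p under 0.05. At 8 h, Col6a3 (-0.57 ± 0.13, adjusted p = 0.00809) and Col8a1 (1.44 ± 0.38, adjusted p = 0.0216) were called, where 7.46% of genes were called in either direction. The Col8a1 call was lost without control replicate 1, AF replicate 2, BCNU replicate 1 or co-treated replicate 2 (adjusted p = 0.0839, 0.0739, 0.0931 and 0.0658). The Col6a3 call was lost without AF replicate 2 (adjusted p = 0.0521) and when only the 8 h arrays were fitted (adjusted p = 0.118). Col8a1 read 5.26 and 5.37 in co-treated cells, 4.43 and 4.35 in AF cells, 4.37 and 4.86 in BCNU cells, and 5.13 ± 0.18 in control cells (mean ± SD, n = 2), so co-treated and control arrays lay close together and the single-drug arrays lay below both. At 24 h, 10 collagens were called for a negative interaction, where 2.01% of genes were. The largest were Col12a1 (-1.86 ± 0.15, adjusted p = 1.23e-07), Col11a1 (-1.79 ± 0.25, adjusted p = 0.000115) and Col1a1 (-1.64 ± 0.14, adjusted p = 1.79e-07). The others were Col8a1, Col1a2, Col3a1, Col5a2, Col15a1, Col4a2 and Col6a3. Col12a1 read 6.29 and 6.31 in co-treated cells, 8.00 and 8.03 in AF cells, 8.54 and 8.54 in BCNU cells, and 8.38 and 8.39 in control cells. The co-treated arrays stood furthest from control. Col4a2 read 8.43 and 8.57 in co-treated cells, 8.96 and 9.09 in AF cells, 9.05 and 9.03 in BCNU cells, and 8.89 and 8.90 in control cells, with an interaction of -0.66 ± 0.13 (adjusted p = 0.00337). Its single-drug arrays lay above control and its co-treated arrays below. Col6a3 read 9.99 and 10.21 in co-treated cells, 10.27 and 10.40 in AF cells, 10.53 and 10.55 in BCNU cells, and 10.18 and 10.31 in control cells (-0.53 ± 0.13, adjusted p = 0.0202). Here the BCNU arrays were highest and the co-treated and control arrays overlapped. Leaving out 1 array cost the call of Col15a1 and Col6a3 for 5 of the 8 arrays each and of Col8a1 for 4 of 8 (adjusted p up to 0.14, 0.134 and 0.0949), and the counts without 1 array ran from 7 to 12. At the upper end, without co-treated replicate 2, Col4a6 and Col24a1 entered with positive interactions (1.00 and 0.90). Fitting the 24 h arrays alone left 6 collagens, where 0.925% of all genes were called lower in that fit, and Col5a2 and Col4a2 were among those lost (adjusted p = 0.105 each).

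**Figure D4:**
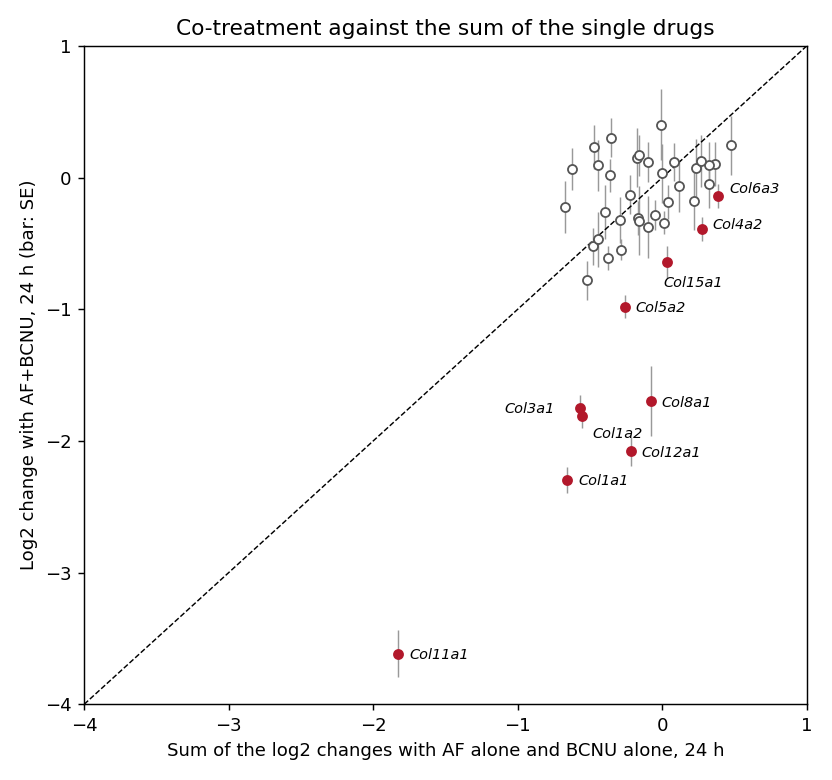
Observed log2 change of AF+BCNU at 24 h (vertical axis) against the sum of the AF and BCNU log2 changes (horizontal axis) for the 44 collagens, with bars for the SE and a dashed line where both are equal. The 10 collagens whose interaction was called, in red, lie below the line.

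The genes that make, process and degrade collagen were described from lists of named genes. At 24 h of co-treatment 4.25% of all tested genes were called lower and 4.88% higher, with a median log2 change of 0.01. Whether any list differed from these shares was not tested. Of 22 tested genes for synthesis and folding, 4 fell and none rose at 24 h of co-treatment, with a list median of -0.22. P4ha3, a prolyl 4-hydroxylase subunit that stabilises the helix, had a log2 change of -1.75 ± 0.20 (adjusted p = 2.27e-06). Fkbp14, a peptidyl-prolyl isomerase, P3h3 and P4ha2 fell by 0.67, 0.65 and 0.62. Of 11 propeptide-removal and cross-linking genes, 5 fell and 1 rose: Lox, which cross-links fibrils, by -2.70 ± 0.13 (adjusted p = 9.29e-12), with Loxl3 (-1.88), Pcolce (-1.18), Loxl1 (-0.61) and Bmp1 (-0.55), and Pcolce2 at 0.64 ± 0.20. Among 9 collagen receptors, 3 fell, Itga11 (-2.33 ± 0.18, adjusted p = 7.37e-09), Itga1 (-0.69) and Mrc2 (-0.57), and Gp6 rose by 0.97 from a low level. Of 10 breakdown genes, a list that pools proteases with the Timp inhibitors of metalloproteinases, 4 fell and 2 rose. Mmp2, a gelatinase, changed by -3.26 ± 0.16 (adjusted p = 8.62e-12), Timp3 by -3.05, Timp2 by -2.10 and Mmp14 by -2.05, whereas Mmp13, a fibrillar collagenase, rose by 3.26 ± 0.28 (adjusted p = 7.2e-08) and Timp1 by 1.18 ± 0.18. On the 12 tested genes of the TGF-beta axis, a pathway known to induce collagen transcription, 4 fell (Tgfb3, Tgfb2, Ski, Smad3) and 2 rose (Tgfbr2, Smad7), with a list median of -0.10. That list pools activating members with the inhibitors Ski and Smad7.

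Markers of cell types were described from lists in the same way, and their part in the result was not tested. Of 9 tested fibroblast and preadipocyte markers, 8 were lower after 24 h of co-treatment, with a list median of -2.53. In that comparison 4.25% of all genes were called lower and 4.88% higher. Pdgfra (-2.53 ± 0.13), Dlk1 (-2.69 ± 0.13), Dcn (-2.63 ± 0.11), Lum (-2.40 ± 0.15) and Postn (-3.50 ± 0.13) were among them, and Cd34 was not called. The summed level of the list, on the log2 scale, was 9.90 to 9.94 in co-treated cells, 12.24 to 12.38 in AF cells, 12.18 to 12.22 in BCNU cells and 12.69 in control cells. At 2, 4 and 8 h of co-treatment 1, 3 and 6 of the 9 were lower, where 0.86%, 3.31% and 5.58% of all genes were. With BCNU alone, 1, 6 and 1 of the 9 were lower at 4, 8 and 24 h, where 86, 297 and 15 of all 21506 genes were. The list median at 8 h of BCNU was -0.65, and no collagen was called in that comparison. There, however, 28 of the 44 collagens had a log2 change below 0, with a median of -0.11, beside 0.002 for all genes. The fibrillar median was -0.22 and the type 6 median 0.08. Col12a1 changed by -0.44 (adjusted p = 0.0269, limma), under the size threshold. At 24 h of AF, when Col11a1 and Col3a1 fell, Lum, Dcn and Postn were lower and Thy1 was higher. In that comparison 77 of all 21506 genes were called lower and 198 higher. Neither drug alone gave a call in this list at its other times. Of the 9 tested adipocyte markers 0 were called at 24 h, with a list median of -0.11 and a summed level of 15.29 to 15.31 in co-treated cells and 15.44 at most in control cells. The summed collagen level was 13.01 to 13.04 in co-treated cells, 13.66 to 13.78 in AF cells, 13.89 to 13.90 in BCNU cells and 13.96 at most in control cells. Of the smaller lists, the myofibroblast markers Acta2 (-1.91 ± 0.14) and Tagln (-1.16 ± 0.23) fell (2 of 5), 0 of 5 chondrocyte markers were called, Cd68 rose by 2.81 ± 0.24 and Lyz2 fell by 1.01 among 5 macrophage markers, and Pecam1 (2.94 ± 0.27) and Kdr (1.02 ± 0.25) rose among 4 endothelial markers. The summed macrophage level was 7.73 to 7.85 in co-treated cells and 6.23 in control cells. For the endothelial list it was 6.65 to 7.31 in co-treated cells and 4.72 to 4.89 in control cells. A summed level follows the list members of highest level most. The list medians were -0.03 for macrophage, 0.59 for endothelial and 0.05 for myofibroblast markers.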

How the data were processed

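Total RNA of 3T3-L1 adipocytes was hybridised to 32 arrays, 2 in each of 16 groups taken from the sample labels. The deposited table held log2 expression values that the authors made with robust multi-array average (RMA, version not given in the sources used here): background correction, quantile normalisation and a summary per transcript cluster, after which transcripts with no approved symbol were removed. The table held 25293 probe sets. Symbols came from the platform annotation: 22030 probe sets had 1 symbol, 685 had several and 2578 had none, and those with several or none were left out. Entrez identifiers tied 21930 of the single-symbol probe sets to RefSeq GRCm38.p6, and 0 symbols changed. Probe sets of a gene were averaged by the median (465 genes, among them Col5a1 with 2), leaving 21506 genes.

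Differences were tested with limma 3.58.1 in R 4.3.3: 16 group means fitted to all 32 arrays (16 residual degrees of freedom, prior 3.50), Benjamini-Hochberg adjustment over all genes within each of 20 contrasts, and a gene called at adjusted p under 0.05 and absolute log2 change over 0.5, the study's thresholds. The test was tried on simulated data. Named in full were the collagens called at 24 h of co-treatment with the 3 largest falls per class, the Col25a1 exception called in both directions, and up to 4 genes per list and direction. Other collagens given with array values were chosen after their values were seen. The collagens, the lists and the alternatives were chosen with earlier results of these data known. Alternatives were a replicate block, median centring, cyclic loess, arrays of the contrast's times only, a filter on low levels, a variance trend, the probe set of highest level, adjusted p alone, the 4 h control for 2 h, and leaving out each array.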

Additional observations from a re-analysis of the deposited data

Results flagged for a closer look

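Results were marked where 2 effects differed by a test of the difference itself. At 8 h, the effect of both drugs departed from the sum of the single-drug effects for Col6a3 (-0.57) and Col8a1 (1.44). Of all genes, 7.46% were called in that interaction in either direction. Each of these collagen calls was lost on leaving out at least 1 array. At 24 h, it departed downwards for Col12a1 (-1.86), Col11a1 (-1.79), Col1a1 (-1.64), Col8a1 (-1.62), Col1a2 (-1.25), Col3a1 (-1.18), Col5a2 (-0.72), Col15a1 (-0.67), Col4a2 (-0.66) and Col6a3 (-0.53). The co-treatment effect at 24 h was below that at 8 h for Col11a1 (-2.99), Col1a1 (-1.94), Col8a1 (-1.89), Col12a1 (-1.45), Col3a1 (-1.42), Col1a2 (-1.41), Col16a1 (-0.79) and Col5a2 (-0.66). All values are log2 changes. Of all genes, 2.01% were called lower for the 24 h interaction and 1.34% for the 24 h effect minus the 8 h effect. The 24 h interactions of Col15a1, Col6a3 and Col8a1 and the Col16a1 difference lost their calls on leaving out single arrays.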

How the results depend on the processing

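At 24 h of co-treatment the count of 12 called collagens was 12 under 7 of the 8 alternatives tried and 14 by adjusted p alone. It was also 12 on leaving out each array in turn, but not always of the same genes: Col5a1 was lost and Col25a1 entered without control replicate 2, and Col5a1 was lost and Col24a1 entered, as higher, without co-treated replicate 2. Over 46 results for single genes, 587 values under alternatives other than adjusted p alone were computed; 513 kept their direction and call, 74 lost the call and 0 changed direction. Other counts moved as follows. At 2 h of co-treatment (1 called) the replicate block, the variance trend and adjusted p alone each gave 2, and the 4 h control gave 3. At 8 h of co-treatment (4) arrays of that time only gave 2 (genes lower over the whole table went to 983, against 1201 in the fit of all arrays) and adjusted p alone gave 11. For AF at 24 h (2) arrays of that time only gave 0 (12 genes lower, against 77). For BCNU at 4 h (1) arrays of that time only gave 0 (1 gene lower, against 86), the probe set of highest level 0 and adjusted p alone 2, and for BCNU at 8 h (0) adjusted p alone gave 1. The interaction at 4 h (0) gave 1 after median centring, that at 8 h (2) gave 1 and that at 24 h (10) gave 6 with arrays of that time only (400 genes in either direction, against 1605, at 8 h and 199 lower, against 433, at 24 h). The BCNU change from 8 to 24 h (0) gave 1 with the variance trend. The cause of these shifts was not tested, except that fewer arrays leave fewer degrees of freedom. The numbers in the labels did not pair the arrays: correlations ran from -0.048 to 0.062 over all pairs of groups, and the replicate block changed no other count of collagens by over 1.5 times. On leaving out each array, counts ran from 1 to 1 for co-treatment at 2 h, 2 to 4 at 4 h and 1 to 4 at 8 h, 0 to 1 for AF at 8 h, 1 to 2 for AF at 24 h, 0 to 1 for BCNU at 4 and at 8 h, 0 to 3 for the interaction at 8 h, 7 to 12 at 24 h, and were 7 throughout for the 24 h against 8 h effect. They were 0 throughout for the other comparisons. Collagens at low level, 5 of 44 at or below the highest lower quartile of any array, limit what can be read as a fall. A further limit is that 22 of the 44 lay at or below the level of the median gene, where 0 were called at 24 h of co-treatment.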
